A study of Mus musculus with 6 samples.

Results

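Genes of non-classical antigen presentation, costimulation and antibody transport were followed in RNA-seq of the mouse small intestinal epithelium: Fcgrt, Cd1d1, Mr1, Cd274 and Icosl. They were chosen by name, and are 5 of the 51912 genes in the tables. The epithelial cells were sorted from C57BL/6 mice of 3 kinds, with 2 libraries of each. Antigen-free (AF) mice met foreign antigens neither from a microbiota nor from food (replicates 2 and 3), germ-free (GF) mice lacked a microbiota (replicates 1 and 3), and specific pathogen free (SPF) mice lacked just certain pathogens (replicates 3 and 4). AF versus GF therefore sets mice without food antigens against mice with them where neither has a microbiota, GF versus SPF sets mice without a microbiota against mice with one, and AF versus SPF combines both. The sources used here give no diet composition, age, sex, sorting marker or pooling of animals. They also do not say whether the libraries of a group stem from different mice, and the tests below therefore reflect only how much these libraries scatter, which may be technical.

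Of these genes, 3 encode heavy chains that resemble MHC class I and pair with beta-2-microglobulin, the product of B2m. CD1d (Cd1d1) presents lipids to natural killer T cells, MR1 (Mr1) presents metabolites of microbial riboflavin synthesis to mucosal-associated invariant T cells, and FcRn (Fcgrt), which holds no peptide, binds IgG and albumin in acidic endosomes, returns them to the cell surface and carries IgG across epithelia. The other 2 are ligands of the B7 family: PD-L1 (Cd274) restrains T cells through PD-1, and ICOSL (Icosl) costimulates them through ICOS.

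The 6 libraries held between 16109488 and 19417054 expected counts. A single count corresponded to 0.0365 to 0.0785 CPM (counts scaled to a common library total) after TMM scaling, which sets libraries to a common level through the bulk of their genes. Epithelial genes were abundant in every library, with Epcam at 573.8 to 750.0 CPM and Vil1 at 1846 to 3646 CPM, while the leukocyte gene Ptprc was at 1.96 to 17.0 CPM. SPF replicate 4 stood apart in its epithelial cell types: the summed level of 7 enteroendocrine markers was 282 CPM there and 1134 to 3484 CPM in the other 5 libraries, and that of 6 Paneth cell markers 41.3 CPM there and 886 to 5286 CPM elsewhere. Together, 4 Y-linked genes had 760 to 1692 counts in the AF and GF libraries and 0 in both SPF libraries. Xist was at 0 to 0.178 CPM in both AF libraries and GF replicate 1, 14.8 CPM in GF replicate 3, and 129.7 and 96.6 CPM in the SPF libraries, so the GF libraries also differed from each other, and sex cannot be told apart from the difference of AF or GF from SPF. File names carry a date-like mark that differs between the groups, so a batch by date cannot be told apart from any group either.

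The 5 genes spanned a wide range of levels in the epithelium. In TPM, the share of transcripts corrected for their length, Fcgrt was at 25.8 to 57.7 over the 6 libraries, Icosl at 1.40 to 3.03, Cd274 at 0.31 to 0.97, Cd1d1 at 0 to 1.19 and Mr1 at 0 to 0.11. Fcgrt exceeded Icosl 10.9 to 22.0 times within a library on the TPM scale, and Icosl exceeded Cd274 2.03 to 5.68 times, so this order held in all 6 libraries. Cd274 and Cd1d1 were not apart: Cd274 had 0.660 to 0.986 times the TPM of Cd1d1 in 5 libraries, and Cd1d1 was at 0 in SPF replicate 4. Ranked by TPM, Fcgrt lay at the 80.5th to 89.7th percentile of the 13644 genes tested, Icosl at the 24.6th to 41.8th and Cd274 at the 9.95th to 27.8th.

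Of the 5 genes, 4 passed the filter on low counts and were tested, and Mr1 did not. By edgeR's quasi-likelihood test with Benjamini-Hochberg adjustment over all genes, 0 of the 4 were called at an adjusted p below 0.05 in any comparison. Of all 13644 genes, 0.0147% were called in AF versus GF, 0.0147% in GF versus SPF, 0.0440% in AF versus SPF and 0.0293% in the test of any difference among the groups. At an unadjusted p below 0.05, Fcgrt alone passed, in GF versus SPF, where 3.51% of all genes passed as lower. At that level 0 of the 4 passed in AF versus GF, AF versus SPF or the test of any difference, in which 2.07% and 6.52% of all genes passed as lower and 7.33% passed. DESeq2 also called 0 of the 4, and of all genes it called 0.586% in GF versus SPF, 0.374% in AF versus GF, 1.99% in AF versus SPF and 1.52% for any difference. With 2 libraries in a group these tests leave wide intervals, given below for each gene.

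Fcgrt (ENSMUSG00000003420; GRCm38 chr7:45092990-45103851, minus strand) was lower in both AF and both GF libraries than in either SPF library. It had 25.8 and 30.8 TPM in AF, 32.8 and 40.8 TPM in GF, and 57.7 and 47.4 TPM in SPF epithelium, so the 3 groups were apart on the TPM scale in the order AF, GF, SPF. Of the 12120 genes with at least 1 TPM in 2 libraries, 5.18% had that order, 27.2% had both AF libraries below both GF libraries, 38.2% both AF below both SPF libraries and 12.6% both GF below both SPF libraries. In TMM-scaled CPM it had 55.1 and 47.4 in AF, 33.3 and 51.1 in GF, and 63.4 and 83.7 in SPF libraries. On the CPM scale the AF and GF libraries overlapped and both kinds stayed below SPF, as did 22.6% of all tested genes for AF and 17.1% for GF. Bulk libraries cannot tell fewer cells of a type from less RNA per cell.

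The promoter of Fcgrt and that of its partner B2m are shown because B2m joins Fcgrt, Cd1d1 and Mr1, and because interferons, which raise B2m, act through elements that can be looked for in these windows. The windows come from RefSeq on GRCm38.p6 and run from 250 bases before to 50 bases after the annotated start, 5′ to 3′ on the gene's strand. Fcgrt is at chr7:45103773-45104072 (minus) and B2m at chr2:122147437-122147736 (plus), and capitals mark a match to the core of an interferon-stimulated response element.
Fcgrt promoter: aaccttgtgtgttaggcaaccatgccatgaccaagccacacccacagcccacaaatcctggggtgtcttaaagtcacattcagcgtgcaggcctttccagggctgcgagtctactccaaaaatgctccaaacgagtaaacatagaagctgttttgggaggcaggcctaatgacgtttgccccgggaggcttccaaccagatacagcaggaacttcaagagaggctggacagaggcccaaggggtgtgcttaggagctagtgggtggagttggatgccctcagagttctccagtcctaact
B2m promoter: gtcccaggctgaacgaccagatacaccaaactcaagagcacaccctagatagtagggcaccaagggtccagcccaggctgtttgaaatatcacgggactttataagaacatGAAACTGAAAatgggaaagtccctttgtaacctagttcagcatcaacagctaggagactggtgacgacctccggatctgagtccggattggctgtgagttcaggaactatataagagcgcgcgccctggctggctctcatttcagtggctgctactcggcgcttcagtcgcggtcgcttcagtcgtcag
The element was searched on both strands as TTTC, any 2 bases, then TTTC, and 3.44% of 32851 promoter windows of the same length hold it. In B2m it reads GAAACTGAAA, 139 to 130 bases upstream of the start, and the windows of Fcgrt, Cd274, Icosl and Mr1 held no match. A gamma-activated site, searched on both strands as TTC, any 3 bases, then GAA, was found in none of these 5 windows and in 8.30% of all windows. A match is one of letters only, and its absence says nothing of the factors.

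Fcgrt averaged 42.2 ± 12.6 CPM in GF and 73.6 ± 14.4 CPM in SPF epithelium (SD, n = 2 each). The log2 fold change of GF over SPF was -0.80 (SE 0.28, 95% interval -1.49 to -0.12), with an adjusted p of 0.738 in edgeR. In AF, Fcgrt averaged 51.2 ± 5.50 CPM (SD, n = 2). AF versus SPF gave a log2 fold change of -0.52 (SE 0.28, 95% interval -1.21 to 0.16; edgeR adjusted p = 0.528), and AF versus GF one of 0.28 (SE 0.28, 95% interval -0.40 to 0.97; edgeR adjusted p = 1). Comparisons with SPF share the SPF libraries.

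The size of the Fcgrt difference depended on the scale. RSEM's effective length for Fcgrt was 1049 bases in GF replicate 3 and 1466 to 1543 bases in the other 5 libraries, and with effective lengths as offsets the GF versus SPF log2 fold change was -0.46 (edgeR adjusted p = 0.838). Without GF replicate 3 it was -1.15, without GF replicate 1 it was -0.53, and without SPF replicate 4 it was -0.60. The direction of AF versus GF turned with scaling: on log2(TPM + 1) in limma it was -0.37, beside a median over all genes of -0.36, so that Fcgrt stood -0.01 from the median, whereas it stood 0.30 from the median in the TMM-scaled fit. For AF versus SPF the distance from the median of all genes was -0.56 on log2(TPM + 1) and -0.53 in the TMM-scaled fit. Mitochondrially encoded genes, which share the TPM total, took 35.3% and 28.7% of counts in AF, 17.9% and 32.1% in GF, and 18.1% and 27.2% in SPF libraries, and their part in the TPM order was not tested.

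**Figure D1:**
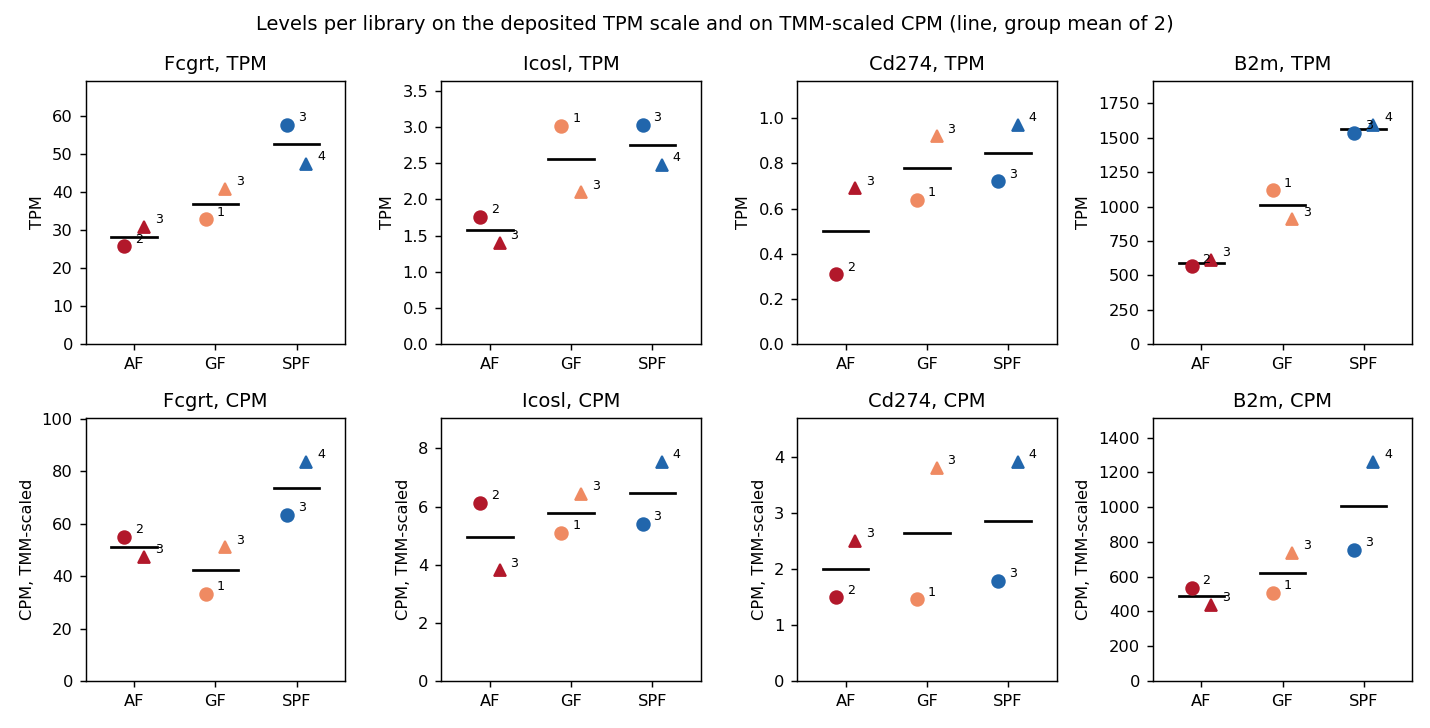
Levels of Fcgrt, Icosl, Cd274 and B2m in each library, in TPM (top row) and TMM-scaled CPM (bottom row), for AF, GF and SPF epithelium; points are libraries with their replicate number and lines are means of 2. Fcgrt in TPM is 25.8 and 30.8 in AF, 32.8 and 40.8 in GF, and 57.7 and 47.4 in SPF, whereas in CPM the AF and GF points overlap.

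B2m (ENSMUSG00000060802; GRCm38 chr2:122147686-122153083, plus strand) showed the same order in TPM. It had 565 and 614 TPM in AF, 1120 and 908 TPM in GF, and 1536 and 1594 TPM in SPF libraries. Of the 12120 genes, 5.18% had that order. In TMM-scaled CPM it had 536 and 439 in AF, 507.5 and 738 in GF, and 754 and 1262 in SPF libraries. On that scale AF and GF overlapped and both stayed below SPF, as did 22.6% of all tested genes for AF and 17.1% for GF. The log2 fold change was -1.05 in AF versus SPF (edgeR adjusted p = 0.424), -0.35 in AF versus GF (edgeR adjusted p = 1) and -0.70 in GF versus SPF (edgeR adjusted p = 0.758). No comparison of B2m passed the adjusted threshold.

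Relative to B2m transcripts, Fcgrt did not follow the order of its own level. It amounted to 4.56% and 5.03% of B2m TPM in AF, 2.93% and 4.50% in GF, and 3.75% and 2.97% in SPF libraries. The averages were 4.79 ± 0.33% in AF, 3.71 ± 1.11% in GF and 3.36 ± 0.55% in SPF (SD, n = 2 each). RSEM's effective length for Fcgrt was 1049 bases in GF replicate 3 and 1526 bases in GF replicate 1. Its part in the GF spread was not tested. Both AF libraries lay above all 4 others, while GF and SPF overlapped. B2m itself was lowest in AF in TPM, so a gene that fell less than B2m rises in this ratio. The share of all genes with that separation was not counted, and the ratio was described with no test. Cd1d1 amounted to 0.0832% and 0.114% of B2m TPM in AF, 0.0786% and 0.131% in GF, and 0.0541% and 0% in SPF libraries. B2m transcripts thus outnumbered those of these heavy chains in every library.

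**Figure D2:**
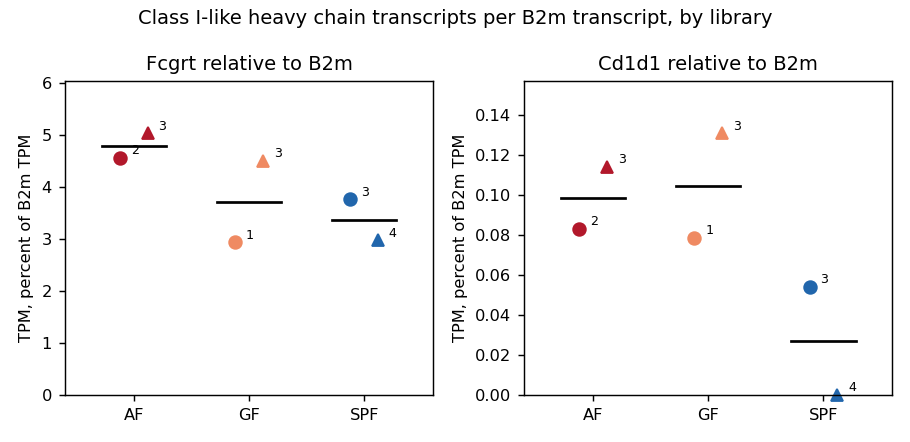
TPM of Fcgrt (left) and Cd1d1 (right) as a percent of B2m TPM in each library of AF, GF and SPF epithelium; points are libraries with their replicate number and lines are means of 2. The AF points for Fcgrt, at 4.56% and 5.03%, lie above all others, a separation not counted over all genes. The lowest Cd1d1 point is SPF replicate 4 at 0%.

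Cd1d1 (ENSMUSG00000028076; GRCm38 chr3:86995834-86999441, minus strand) was near the limit of detection. Its near-identical neighbour Cd1d2 (ENSMUSG00000041750; GRCm38 chr3:86986551-86989780, plus strand), annotated as a polymorphic pseudogene, could share reads with it: the coding sequences are identical at 972 of 1005 aligned bases (96.7%), with a longest identical run of 242 bases. The stretch of coding bases 400 to 459 is shown because it holds 8 of the differences that let reads be assigned, marked by capitals.
Cd1d1, chr3:86998226-86998285 (minus): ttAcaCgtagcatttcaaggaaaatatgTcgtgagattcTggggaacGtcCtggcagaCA
Cd1d2, chr3:86987608-86987667 (plus): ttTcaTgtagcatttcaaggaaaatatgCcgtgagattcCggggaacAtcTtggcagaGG
RSEM gave Cd1d2 0 counts after rounding in all 6 libraries, and its posterior standard deviation for Cd1d1 was at most 0.73 counts, or 10.4% of the count in AF replicate 3.

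Cd1d1 had 6 and 7 counts in AF, 13 and 13 in GF, and 12 and 0 in SPF libraries. In CPM these were 0.471 and 0.416 in AF, 0.474 and 0.882 in GF, and 0.550 and 0 in SPF libraries. AF libraries lay below GF libraries, if narrowly, as did 17.8% of all tested genes in CPM, and both AF values lay between the SPF values. In TPM the values were 0.47 and 0.70 in AF, 0.88 and 1.19 in GF, and 0.83 and 0 in SPF libraries. GF was thus highest, though only by 0.88 against 0.83 TPM at the nearest and with 13 counts a library. The share of all genes with GF highest was not counted. RSEM's effective length for Cd1d1 ranged from 541 bases in AF replicate 3 to 1033 bases in SPF replicate 4. Summed over a group there were 13 counts in AF (exact 95% Poisson interval 6.92 to 22.2), 26 in GF (17.0 to 38.1) and 12 in SPF (6.20 to 21.0), intervals that cover counting error only.

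The edgeR log2 fold changes of Cd1d1 were 1.16 in GF versus SPF (SE 1.24, 95% interval -1.86 to 4.18; adjusted p = 0.849), -0.58 in AF versus GF (SE 1.23, 95% interval -3.59 to 2.42; adjusted p = 1) and 0.58 in AF versus SPF (SE 1.28, 95% interval -2.55 to 3.71; adjusted p = 0.907). With effective lengths as offsets they were 1.60 in GF versus SPF, -0.45 in AF versus GF and 1.15 in AF versus SPF. Both comparisons with SPF rested on SPF replicate 4. Without it the log2 fold change was 0.27 in GF versus SPF and -0.31 in AF versus SPF. That library, with no Cd1d1 count where 3 counts would be 0.206 CPM, was also the one with the lowest summed levels of enteroendocrine, Paneth, goblet (2805 CPM against 11910 to 29150 elsewhere), tuft and crypt stem cell markers, and the highest of enterocyte markers (54480 CPM against 18630 to 30570 elsewhere). Their part in the Cd1d1 value was not tested.

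Mr1 (ENSMUSG00000026471; GRCm38 chr1:155127277-155146814, minus strand) had 0 and 0 counts in AF, 1 and 1 in GF, and 5 and 0 in SPF libraries. The group sums were 0 in AF (exact 95% Poisson upper bound 3.69), 2 in GF (0.242 to 7.22) and 5 in SPF (1.62 to 11.7), and all 3 intervals overlap. A difference in Mr1 was not detectable at this depth, and no fold is given since AF had no count. With no filter, edgeR's adjusted p was 0.944 in GF versus SPF, 1 in AF versus GF and 0.831 in AF versus SPF.

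**Figure D3:**
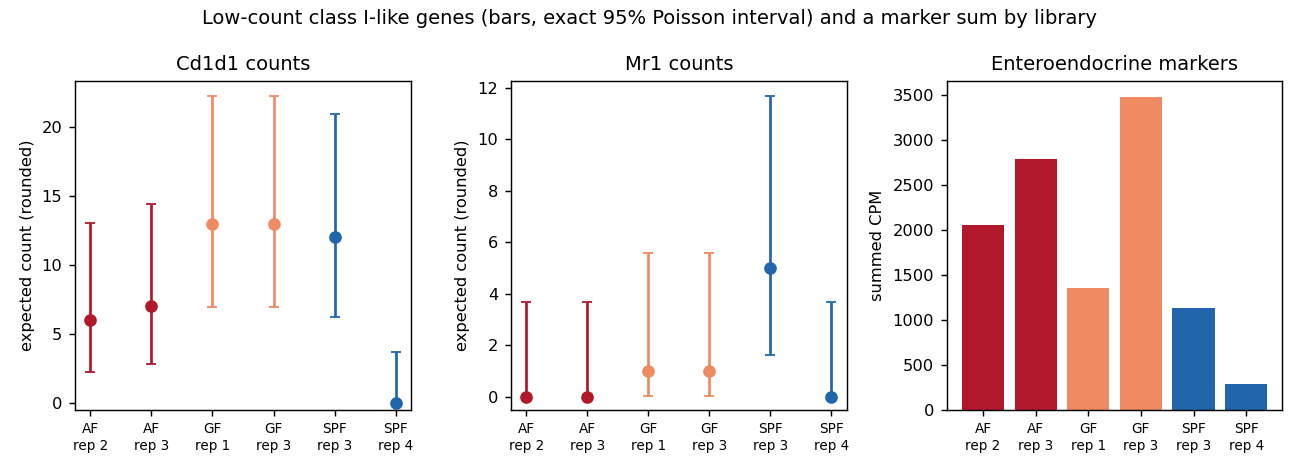
Rounded expected counts of Cd1d1 (left) and Mr1 (middle) with exact 95% Poisson intervals, and the summed CPM of 7 enteroendocrine markers (right), for each library of AF, GF and SPF epithelium. SPF replicate 4 has 0 Cd1d1 counts and the lowest marker sum, 282 CPM, and the Mr1 intervals all overlap.

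Of the 2 ligands of the B7 family, Icosl (ENSMUSG00000000732; GRCm38 chr10:78069302-78083913, plus strand) was the more abundant. It had 1.76 and 1.40 TPM in AF, 3.02 and 2.10 TPM in GF, and 3.03 and 2.48 TPM in SPF libraries. Both AF libraries were below all others in TPM, as were 27.2% of the 12120 genes for AF against GF and 38.2% for AF against SPF, each counted on its own. In CPM the groups overlapped, with 6.13 and 3.80 in AF, 5.10 and 6.45 in GF, and 5.40 and 7.54 in SPF libraries. Each of these 2 TPM separations of Icosl, taken singly, was thus shared by many genes, and the share with both was not counted. After TMM scaling neither was present.

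Between groups, edgeR's log2 fold change of Icosl was -0.22 in AF versus GF (SE 0.39, 95% interval -1.16 to 0.73; adjusted p = 1), -0.38 in AF versus SPF (SE 0.39, 95% interval -1.33 to 0.56; adjusted p = 0.757) and -0.17 in GF versus SPF (SE 0.38, 95% interval -1.10 to 0.77; adjusted p = 0.925). Intervals of this width do not show that the groups were alike.

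Cd274 (ENSMUSG00000016496; GRCm38 chr19:29367455-29388095, plus strand) varied within groups as much as between them. It had 19 and 42 counts in AF, 40 and 56 in GF, and 39 and 57 in SPF libraries. In CPM these were 1.49 and 2.5 in AF, 1.46 and 3.80 in GF, and 1.79 and 3.91 in SPF libraries, so the groups overlapped and the libraries of 1 group differed 1.67-fold in AF, 2.61-fold in GF and 2.19-fold in SPF. In TPM it was 0.31 and 0.69 in AF, 0.64 and 0.92 in GF, and 0.72 and 0.97 in SPF libraries, with both AF libraries below both SPF libraries. Cd274 was not among the genes behind the TPM shares above, since no library reached 1 TPM.

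Its edgeR log2 fold change was -0.38 in AF versus GF (SE 0.68, 95% interval -2.04 to 1.29; adjusted p = 1), -0.50 in AF versus SPF (SE 0.68, 95% interval -2.17 to 1.17; adjusted p = 0.830) and -0.12 in GF versus SPF (SE 0.68, 95% interval -1.77 to 1.53; adjusted p = 0.968). The annotated span of an antisense gene, AC119228.1, overlaps that of Cd274 by 11055 bases, introns included. No count was matched to it and the strand setting is not given, so a share of its reads in Cd274 was not tested. Genes on the opposite strand also overlap the spans of Fcgrt (Gm45669, 5331 bases, 0 counts over the 6 libraries) and B2m (Patl2, 5398 bases, 3 counts). The promoter of Cd274, at chr19:29367188-29367487 (plus, GRCm38.p6), is shown because interferon is a known inducer of PD-L1 and the window held neither searched motif.
Cd274 promoter: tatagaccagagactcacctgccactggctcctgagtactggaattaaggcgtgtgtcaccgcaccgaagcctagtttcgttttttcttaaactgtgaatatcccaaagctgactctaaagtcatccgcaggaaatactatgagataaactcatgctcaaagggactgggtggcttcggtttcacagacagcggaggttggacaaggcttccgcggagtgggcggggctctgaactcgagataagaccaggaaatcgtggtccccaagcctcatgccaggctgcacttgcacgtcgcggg

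Immune cells also express these ligands and FcRn. The summed level of 10 macrophage and dendritic cell markers was 5.89 and 6.18 CPM in AF, 10.9 and 15.5 CPM in GF, and 14.8 and 8.71 CPM in SPF libraries, with 3 to 7 of the 10 markers at 10 counts or more, Xcr1 at 0 in all 6 libraries and Flt3 at 1 count or fewer. The 6 B and plasma cell markers together reached 0.0785 to 0.778 CPM, with Mzb1 at 0 throughout, 4 endothelial markers 0.656 to 2.98 CPM and 5 stromal markers 0.275 to 0.984 CPM. The 9 T cell and intraepithelial lymphocyte markers summed to 15.3 and 11.9 CPM in AF, 31.5 and 304 CPM in GF, and 182 and 68.6 CPM in SPF libraries. AF libraries were the lowest in the macrophage, B cell and T cell sums, but 0 of the 6 B and plasma cell markers reached 10 counts in any library. In the macrophage list Cd68 went the other way against GF, with 1.34 and 1.13 CPM in AF and 0.802 and 0.882 CPM in GF libraries. The share of all genes lowest in AF was not counted. The part of these cells in the values of Fcgrt, Icosl and Cd274 was not tested.

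**Figure D4:**
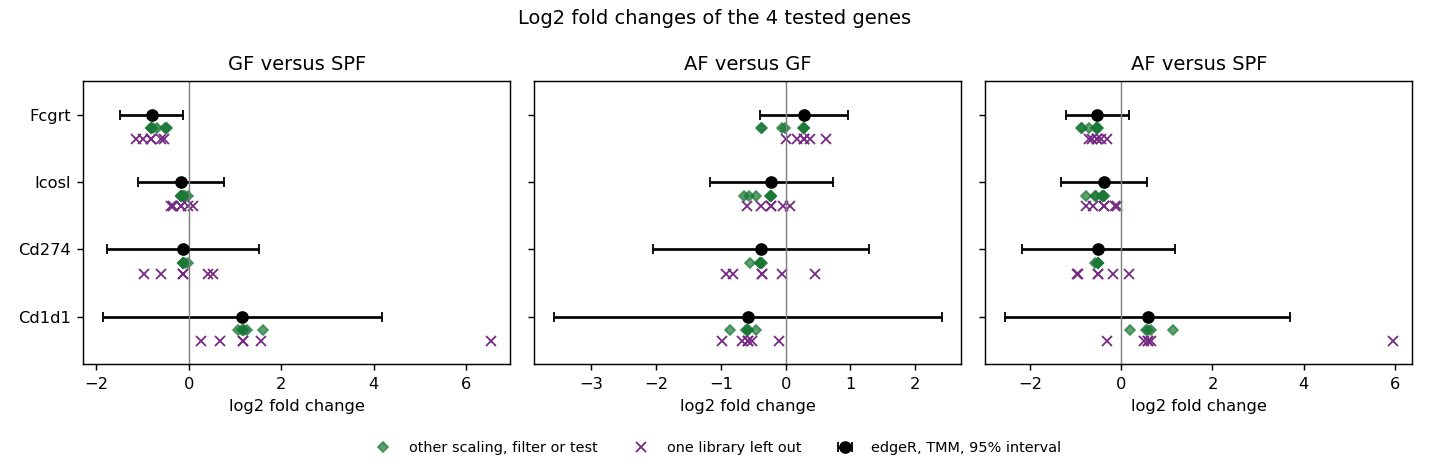
Log2 fold changes of the 4 tested genes in the 3 comparisons; black points with bars are the edgeR estimates with 95% intervals, green diamonds other scalings, filters or tests, and purple crosses fits with 1 library left out. The interval of Fcgrt in GF versus SPF, -1.49 to -0.12, is the only one that leaves out 0, and the Cd1d1 cross farthest right is 6.54.

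The pathways around these genes were read from lists, by the number of members on each side and their median. edgeR called 0 genes of any list in any comparison, at 916 genes with an unadjusted p below 0.05 in GF versus SPF, 491 in AF versus GF and 1540 in AF versus SPF over all genes. DESeq2 called 3 listed genes, all in AF versus SPF and all lower: Pigr, Mttp and Btnl6. It called 1.99% of all genes in that comparison, 1.19% of all genes as lower. The median log2 fold change over all genes tested was 0.02 in GF versus SPF, -0.02 in AF versus GF and 0.01 in AF versus SPF, beside which the lists' medians are given. The 8 genes of epithelial identity had medians of -0.01, -0.03 and -0.16 in the same order of comparisons, and Krt18, a keratin of simple epithelia, had the smallest p among them, with a log2 fold change of 1.16 in AF versus SPF (edgeR adjusted p = 0.420).

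Assembly partners of class I-like molecules comprised 7 genes, of which 7 were lower in AF than in GF (median log2 fold change -0.35), 7 in AF than in SPF (-0.37) and 4 in GF than in SPF (-0.05, but 0.04 with library totals alone). Tapbp, which encodes tapasin, the bridge between class I heavy chains and the peptide transporter, had 115 and 99.1 CPM in AF, 128 and 180 CPM in GF, and 159 and 237 CPM in SPF libraries. Its log2 fold change was -0.89 in AF versus SPF (edgeR adjusted p = 0.398). Tapbpl, a related peptide editor, was at -0.51 in AF versus SPF (edgeR adjusted p = 0.479). The AF versus SPF count turned to 4 higher and 3 lower without SPF replicate 3, with a median of 0.18, and the GF versus SPF median was 0.38 without SPF replicate 3 and -0.23 without SPF replicate 4.

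Genes of lipid loading onto CD1d comprised 14, with 11 lower in AF than in GF (median log2 fold change -0.15), 11 lower in AF than in SPF (-0.24) and 8 lower in GF than in SPF (-0.02, but 0.14 with library totals alone). Without SPF replicate 4 the AF versus SPF split was 7 higher and 7 lower, with a median of -0.03. Mttp, the microsomal triglyceride transfer protein that lipidates apolipoprotein B and CD1d, stood out among them with 716 and 603 CPM in AF, 1034 and 938 CPM in GF, and 1322 and 2404 CPM in SPF libraries. Its AF versus SPF log2 fold change was -1.50 by edgeR (adjusted p = 0.389) and -1.51 by DESeq2 (adjusted p = 0.00808). SPF replicate 4, the library highest in Mttp, was also highest in enterocyte markers, whose part in the Mttp value was not tested. Ctsl, which encodes the protease cathepsin L, was at -0.56 in AF versus SPF (edgeR adjusted p = 0.668).

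Of 13 other ligands of the B7 and butyrophilin-like families, 6 were tested. Cd80, Cd86, Pdcd1lg2, Vtcn1, Btnl9, Btn1a1 and Btn2a2 were below the filter with at most 4 counts in any library, so the classical ligands of CD28 were hardly detected in this epithelium. Of the 6 tested, 5 were lower in AF than in GF (median log2 fold change -0.56), 6 lower in AF than in SPF (-0.86) and 5 lower in GF than in SPF (-0.38). Btnl6, one of the butyrophilin-like proteins of mouse gut epithelium that act on intraepithelial gamma-delta T cells, had 89.1 and 71.3 CPM in AF, 123 and 131 CPM in GF, and 144 and 222 CPM in SPF libraries. Its 3 groups were apart in that order, as were those of 546 of the 13644 tested genes in CPM (4%).

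Btnl6 had an AF versus SPF log2 fold change of -1.19 by edgeR (adjusted p = 0.381) and of -1.20 by DESeq2 (adjusted p = 0.0317). Btnl1, its relative, had 139 and 120 CPM in AF and 188 and 330 CPM in SPF libraries (edgeR adjusted p = 0.389), and Btnl4 had a log2 fold change of -0.71 (edgeR adjusted p = 0.389). With no filter on low counts edgeR called Btnl6 in AF versus SPF (adjusted p = 0.017), among 3.53% of all genes. Without SPF replicate 3, where it called 4.37% of all genes, edgeR called 4 listed genes in AF versus SPF: Btnl6 (adjusted p = 0.0403), Btnl1 (adjusted p = 0.0476) and Mttp (adjusted p = 0.0425) as lower and Krt18 (adjusted p = 0.0379) as higher. Of the receptors, Cd28, Icos and Pdcd1 had at most 3 counts in any library, and Ctla4 had 0 and 0 CPM in AF, 0.0365 and 0.679 CPM in GF, and 0.550 and 0 CPM in SPF libraries; GF replicate 3 and SPF replicate 3 were also the libraries with the highest T cell marker sums.

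Of the 11 genes that control PD-L1, 11 were lower in AF than in SPF (median log2 fold change -0.37), 10 lower in GF than in SPF (-0.29) and 7 lower in AF than in GF (-0.03). Stat3, a transcription factor downstream of cytokine receptors, had 79.2 and 62.8 CPM in AF, 58.8 and 85.8 CPM in GF, and 112 and 159 CPM in SPF libraries, with log2 fold changes of -0.91 in GF versus SPF (edgeR adjusted p = 0.738) and -0.93 in AF versus SPF (edgeR adjusted p = 0.389). Cmtm6, which keeps PD-L1 from degradation, was at -0.76 in AF versus SPF (edgeR adjusted p = 0.389). Cd274 itself was at -0.50 in that comparison. Without SPF replicate 4 the AF versus SPF split was 3 higher and 8 lower and the GF versus SPF split 4 higher and 7 lower (median -0.11). Without GF replicate 3 the AF versus GF split turned to 8 higher and 3 lower (median 0.10), while with library totals alone all 11 were lower in AF than in GF.

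Among 8 genes of FcRn trafficking and other antibody receptors, 7 were lower in AF than in SPF (median log2 fold change -0.55), 7 lower in GF than in SPF (-0.38) and 5 lower in AF than in GF (-0.07). Pigr, the polymeric immunoglobulin receptor that carries IgA into the lumen, had 1243 and 1497 CPM in AF, 2665 and 2679 CPM in GF, and 3155 and 4064 CPM in SPF libraries. Its 3 groups were apart in that order, and its AF versus SPF log2 fold change was -1.40 by edgeR (adjusted p = 0.389) and -1.41 by DESeq2 (adjusted p = 1.1e-04). Trim21, the cytosolic antibody receptor, was at -1.08 (edgeR adjusted p = 0.396), and Ehd1, an ATPase of recycling endosomes, at -0.60 (edgeR adjusted p = 0.583). Without SPF replicate 4 the AF versus SPF split was 2 higher and 6 lower, with a median of -0.13, and the GF versus SPF median was -0.08.

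**Figure D5:**
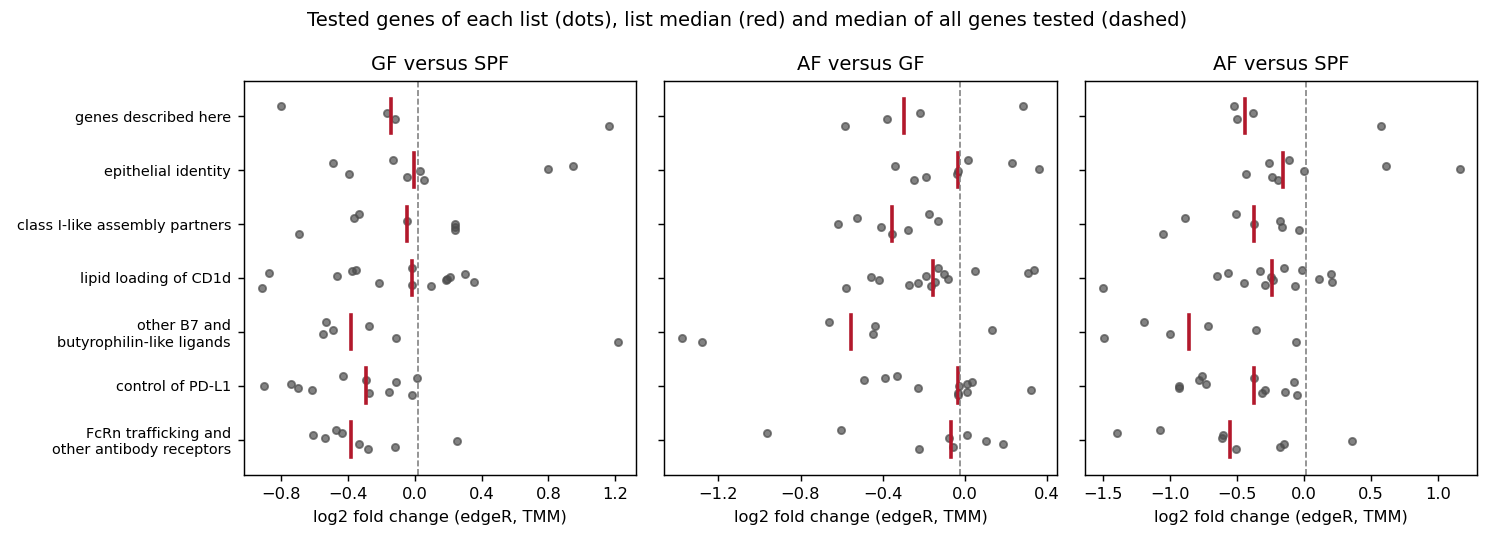
Log2 fold changes by edgeR of the tested genes of each list with more than 1 tested gene in the 3 comparisons; dots are genes, red bars list medians and the dashed line the median of all genes tested. In AF versus SPF the plotted medians lie between -0.86 and -0.16, while that of all genes is 0.01.

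Genes with the most similar pattern were found by the root mean square distance between log2 CPM values centred on each gene's mean over the 6 libraries, among at least 8733 genes with a mean of 5 CPM or more. For Fcgrt these were Trim25 (0.0598), Parp12 (0.0602) and Fam3b (0.0741), against a median of 0.440 over all candidates. Trim25 had 112 and 99.3 CPM in AF, 75.8 and 116 CPM in GF, and 134 and 176 CPM in SPF libraries, following Fcgrt in GF replicate 1 as the lowest and SPF replicate 4 as the highest library. For Icosl they were Kat2b (0.0745), Rdm1 (0.0849) and Zer1 (0.0870), against a median of 0.377. For Cd274 they were Ppp1r18 (0.226), Mycbpap (0.227) and Sectm1a (0.247), against a median of 0.595. These were farther off than the nearest genes of Fcgrt and Icosl, but distances were not scaled by a gene's own spread. The root mean square spread of Cd274 itself was 0.562, that of Fcgrt 0.404 and that of Icosl 0.303. For Cd1d1 they were Arhgef40 (0.152), Rcan3 (0.162) and Nts (0.175), against a median of 1.07, all of them lowest in SPF replicate 4. Sharing a lowest or highest library follows from how these genes and Trim25 were picked and is no separate result. Mr1 was left out as too low.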

How the data were processed

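Per the submitters' processing notes, reads were handled with STAR 2.5.2b, RSEM and edgeR 3.16.5 on GRCm38/mm10; the sources used here do not give the annotation release, read filters or strand setting. The authors deposited expected counts per gene from RSEM, with no scaling between libraries per the file headers, and TPM in the same tables, scaled by effective length to a fixed total. RSEM's posterior standard deviation of a count, used as a score of assignment error, and the effective length were also deposited by the authors per the file headers. Libraries were TruSeq preparations of RNA from sorted cells, per the labels' protocols.

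Expected counts were rounded (23.5% of values above 0 were not whole). Of 51912 IDs, 51633 matched a symbol in GENCODE M21, the source of coordinates. edgeR 4.0.16 in R 4.3.3 fitted all 6 libraries together after filterByExpr (13644 genes) with TMM scaling and the quasi-likelihood F test, leaving 3 residual degrees of freedom, a common coefficient of variation of 0.368 and prior degrees of freedom of 3.08; a call needs an adjusted p (Benjamini-Hochberg, over all genes) under 0.05. Standard errors are the log2 fold change over the root of F. Alternatives were DESeq2 1.42.0, other scalings, no filter, limma 3.58.1 on log2(TPM + 1) and log2(TPM + 0.1) for 12120 genes with at least 1 TPM in 2 libraries, effective lengths as offsets, the 2 groups alone, and each library left out. The genes, lists and markers were chosen with earlier results of these data known. The named genes of each list were those called and up to 3 with the smallest p in the test of any difference. Some genes this rule selects are not reported here. The tables had 11719 to 13734 genes at 10 counts or more.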

Additional observations from a re-analysis of the deposited data

How the results depend on the processing

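None of the genes was called under any setting that tested it. The limma settings tested only Fcgrt and Icosl, and the fit of AF and SPF alone tested 3 of the 4. Of 155 recomputed fold changes 144 kept their direction and 11 reversed. These fits share libraries, and some left out only a library of the group not compared, which hardly moves a value. Cd1d1 in GF versus SPF, 1.16 as reported, was 1.18 without AF replicate 2 and 1.17 without AF replicate 3. The 144 is therefore no measure of stability. Fcgrt in AF versus GF, 0.28 as reported, was -0.012 with library totals alone, -0.37 and -0.38 in limma on log2(TPM + 1) and log2(TPM + 0.1), and -0.053 with effective lengths as offsets. With each library left out in turn, ranges crossing 0 were -0.96 to 0.53 (Cd274) and -0.39 to 0.085 (Icosl) in GF versus SPF, -0.92 to 0.46 (Cd274) and -0.60 to 0.070 (Icosl) in AF versus GF, and -0.31 to 5.96 (Cd1d1) and -0.96 to 0.16 (Cd274) in AF versus SPF. Library totals alone put the median log2 fold change of all genes at 0.16 in GF versus SPF, -0.38 in AF versus GF and -0.20 in AF versus SPF.

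Counts of all genes called varied far more. GF versus SPF had 2 by edgeR, 80 by DESeq2, 0 with library totals, 484 with no filter, 5 and 4 in limma with the larger and smaller pseudocount, 0 with the 2 groups alone, and 0 to 369 with a library left out. AF versus GF had 2, and 51, 4, 264, 9, 5, 8 and 0 to 9 under the same settings, with 1 under effective lengths. AF versus SPF had 6, and 272 by DESeq2, 804 with no filter, 2 with the 2 groups alone and 0 to 625 with a library left out. The test of any difference had 4, and 207 by DESeq2, 937 with no filter, 11 and 9 in limma and 0 to 136 with a library left out. The highest counts with a library left out came without SPF replicate 3, where SPF replicate 4 alone stands for its group and is assumed to vary like the others; the cause was not tested. No paired analysis was possible because any 2 groups share at most the replicate number 3. Depth limits Cd1d1 and Mr1, for which 3 counts are 0.109 to 0.236 CPM.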
